A study of Homo sapiens with 12 samples.

Results

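The AP-1 and EGR immediate early factors are 10 transcription factor genes, FOS, FOSB, FOSL1, FOSL2, JUN, JUNB, JUND, EGR1, EGR2 and EGR3. They were taken by name from a count table of 58302 Ensembl genes, where each of the 10 was found once. AP-1 is a dimer of a FOS-family with a JUN-family protein, or of JUN-family proteins alone, that binds a short palindromic DNA motif. EGR proteins are zinc-finger factors that bind GC-rich sites. Many of these genes are immediate early genes: growth factors, stress and ERK, JNK or p38 kinase signals raise their transcription within minutes through factors already bound at their promoters, and most of their RNAs are short-lived. FOSL1, FOSL2 and JUND are more often found at steady levels, and FOSL1 is known as a major AP-1 component of invasive, mesenchymal-like carcinoma cells.

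The data are polyadenylated RNA counts from 2 human prostate cancer lines, PC3, which comes from a bone metastasis and has no functional p53, and 22Rv1, which expresses the androgen receptor. Per the labels, cells received a lentivirus made from the MSCV-IRES-GFP vector with eGFP alone, with wild-type ETV4 and eGFP (ETV4WT) or with a mutated ETV4 and eGFP (ETV4AAA), and eGFP-positive, DAPI-negative live cells were sorted after 1 week. All 6 groups therefore carry a virus and passed through a sorter, and each holds n = 2 libraries, and nothing at hand says that these were grown separately, so a p-value here reflects only how far these libraries differ, which may be technical. ETV4 is an ETS transcription factor of the PEA3 group. No source used here gives the residues changed in ETV4AAA.

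Libraries held 41698738 to 51199207 counts. ETV4, in CPM (counts scaled to library size with TMM factors), was 31.2 and 24.9 in 22Rv1 eGFP, 385 and 484 with ETV4WT and 390 and 281 with ETV4AAA (replicate 1, then 2, as throughout). In PC3 it was 116 and 126 with eGFP, 215 and 112 in the libraries labelled ETV4WT and 223 and 109 in those labelled ETV4AAA, so replicate 2 of both PC3 constructs was not above eGFP. Replicates also differed along the GC content of genes. Across 10488 genes the Spearman correlation of the log2 ratio of replicate 1 to 2 with GC content was 0.88 in both PC3 construct groups, 0.79 in 22Rv1 eGFP, 0.66 in 22Rv1 ETV4AAA, -0.57 in PC3 eGFP and -0.37 in 22Rv1 ETV4WT. With this trend removed by an offset, an alternative chosen after seeing the data, ETV4 in PC3 was 96.8 and 97.3 CPM with eGFP, 195 and 158 with ETV4WT and 195 and 151 with ETV4AAA. The offset was fitted to each library's own deviation from its line's mean. With it the common biological coefficient of variation, the fitted spread between replicates, fell from 0.149 to 0.0859. The residual degrees of freedom were not lowered for this fit. Adjusted p-values with the GC trend removed may therefore be too small and are not comparable with the others. JUND and JUNB lie at the 99.7 and 96.9 percentile of GC content among the genes tested and FOSL1 at 88.1, and their values are given with and without that offset where it matters. KLK3, 1 of 9 luminal prostate genes listed, was at 0 in every PC3 library and 19.8 to 53.3 CPM in 22Rv1. Of these 9 genes 3 exceeded 1 CPM in each PC3 library: HOXB13, KRT8 and KRT18. HOXB13 overlapped between the lines, at 377 to 813 CPM in PC3 and 598 to 865 in 22Rv1. The sum of 6 blood cell genes, the red cell gene HBB among them, was at most 0.697 CPM in any library.

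Promoters of 4 members are shown because each of these genes passed the test in at least 1 comparison of a construct with eGFP and they hold different known response elements. Each line gives the 150 bases before the RefSeq start (GRCh38.p14), 5′ to 3′ on the gene's own strand. Capitals mark matches, on either strand, to the CArG box bound by SRF, to TGACATCA (the variant AP-1 site known in the JUN promoter), to TGACG (the core of the cyclic AMP response element) and to GGAAGT (an ETS motif). The windows are chr14:75278678-75278827 (plus strand) for FOS, chr5:138465329-138465478 (plus) for EGR1, chr1:58784048-58784197 (minus) for JUN and chr19:12791336-12791485 (plus) for JUNB.
FOS: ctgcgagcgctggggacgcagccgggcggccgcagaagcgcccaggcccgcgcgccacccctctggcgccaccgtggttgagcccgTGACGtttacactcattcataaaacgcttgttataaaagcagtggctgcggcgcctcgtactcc
EGR1: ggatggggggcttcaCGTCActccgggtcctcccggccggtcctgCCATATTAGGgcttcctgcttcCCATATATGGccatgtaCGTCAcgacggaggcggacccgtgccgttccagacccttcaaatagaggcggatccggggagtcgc
JUN: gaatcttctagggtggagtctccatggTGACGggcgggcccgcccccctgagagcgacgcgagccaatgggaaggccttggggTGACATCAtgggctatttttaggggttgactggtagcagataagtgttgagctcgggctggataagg
JUNB: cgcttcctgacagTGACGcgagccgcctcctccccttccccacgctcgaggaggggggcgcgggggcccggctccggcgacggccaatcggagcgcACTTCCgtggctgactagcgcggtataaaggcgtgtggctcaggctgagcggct

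EGR1 held 2 CArG boxes, beginning 105 and 83 bases before the start, which 1.29% of 35116 RefSeq windows (250 bases before to 50 after a start) matched at least once. EGR2 held 1, and no other member window did. Sequence further than 250 bases before a start was not searched, so a CArG box of FOS or another member lying there would be missed. JUN held TGACATCA 67 bases before its start, a match found in 2.61% of windows. TGACG occurred in 8 of the 10 member windows and in 24.6% of all, and FOS carried it at 64 bases. The ETS motif GGAAGT occurred in 3 member windows, FOSB, JUNB and EGR2, and in 22.8% of all windows. The AP-1 motif TGACTCA was found in the FOSL2 window alone (4.95% of all), and the full element TGACGTCA, which contains TGACG, in JUND alone (1.85%). Windows were at hand for 8 members, with 3 of the 10 windows belonging to EGR2. A match describes letters in the window and says nothing of binding.

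**Figure D1:**
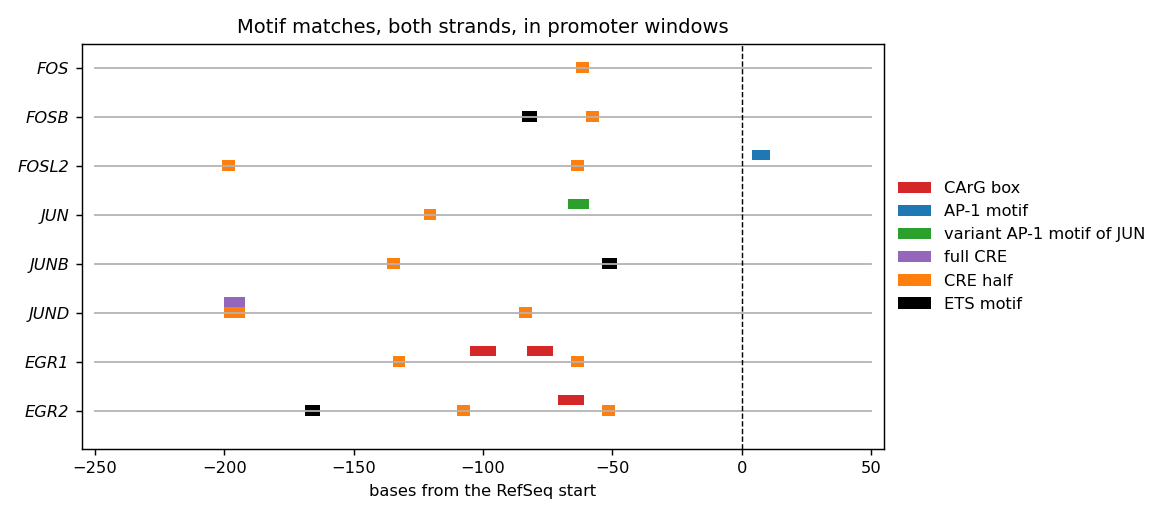
Motif matches in the promoter windows of 8 members, in bases from the RefSeq start (dashed line at 0). Coloured boxes are matches on either strand, and 2 further EGR2 windows without any match are not drawn. EGR1 shows 2 CArG boxes between 105 and 73 bases before the start.

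With eGFP alone the 2 lines expressed different AP-1 and EGR genes. In PC3 eGFP, FOSL1 was the high FOS-family gene, at 274 and 297 CPM, with FOSL2 at 60.9 and 64.1. FOS itself was 0.242 and 0.387 CPM there, and EGR1 was 0.242 and 0.172 CPM. In 22Rv1 eGFP the order was the reverse: FOS, the founding immediate early partner of JUN, was 115 and 101 CPM and EGR1 was 146 and 132 CPM, while FOSL1 was 0.0821 and 0.226 CPM. No PC3 eGFP value overlapped a 22Rv1 eGFP value for these genes. By edgeR's quasi-likelihood test with Benjamini-Hochberg adjustment over 23238 genes, FOS was 8.43 ± 0.29 higher in 22Rv1 on the log2 scale (± SE, adjusted p = 2.22e-10) and EGR1 9.37 ± 0.24 higher (adjusted p = 4.11e-11). FOSL1 was -10.83 ± 0.38 (adjusted p = 2.36e-10), with 15 counts in all in 22Rv1 eGFP.

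The remaining members differed by smaller amounts between the eGFP groups, apart from EGR3. FOSL2, which partners JUN proteins in steady-state AP-1, was 10.8 and 9.7 CPM in 22Rv1, -2.61 ± 0.17 against PC3 (adjusted p = 4.25e-08). FOSB, an inducible FOS relative, was 1.77 and 2.39 CPM in PC3 and 18.5 and 16 in 22Rv1 (log2 3.05 ± 0.21, adjusted p = 7.45e-08). JUND, the most constant JUN protein, was 41.4 and 42.4 CPM against 108 and 95.9 (1.28 ± 0.12, adjusted p = 1e-06). All of these sets of values were apart. JUN, the main transactivating partner, was 37.1 and 39.1 CPM in PC3 and 66.8 and 55.9 in 22Rv1 (0.69 ± 0.17, adjusted p = 0.00319). JUNB, which often restrains JUN, was 9.44 and 11.0 CPM in PC3 and 20.2 and 9.9 in 22Rv1, which overlapped (0.56 ± 0.43, adjusted p = 0.266). The JUNB difference passed with the GC offset (1.04, adjusted p = 1.07e-05) and with no low-count filter (0.63, adjusted p = 0.00355). The offset acts within each line and did not remove a GC trend between the lines. Between the eGFP groups the Spearman correlation of log2 change with GC content was 0.36 before it and 0.48 after it. EGR3, a relative of EGR1, had 2 counts in PC3 eGFP and 274 in 22Rv1 eGFP, a ratio of 135 with a 95% counting interval of 37.1 to 1120. Part of the EGR3 exon sequence, 164 bases, overlaps AC055854.1 on the other strand in GENCODE 29, and no source used here gives the strand setting of the counting, so its counts may include reads of that gene. EGR2 was 0.483 and 0.559 CPM against 0.964 and 1.03 (0.93 ± 0.39, adjusted p = 0.0486), and this call was lost whichever of the 4 libraries was left out (adjusted p 0.105 to 0.184). In all, 9 of 10 members passed in this comparison, beside 70.9% of all genes. Of these 7 were higher in 22Rv1 (34.9% of all genes) and 2 lower (36%), so the count says little of the members.

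**Figure D2:**
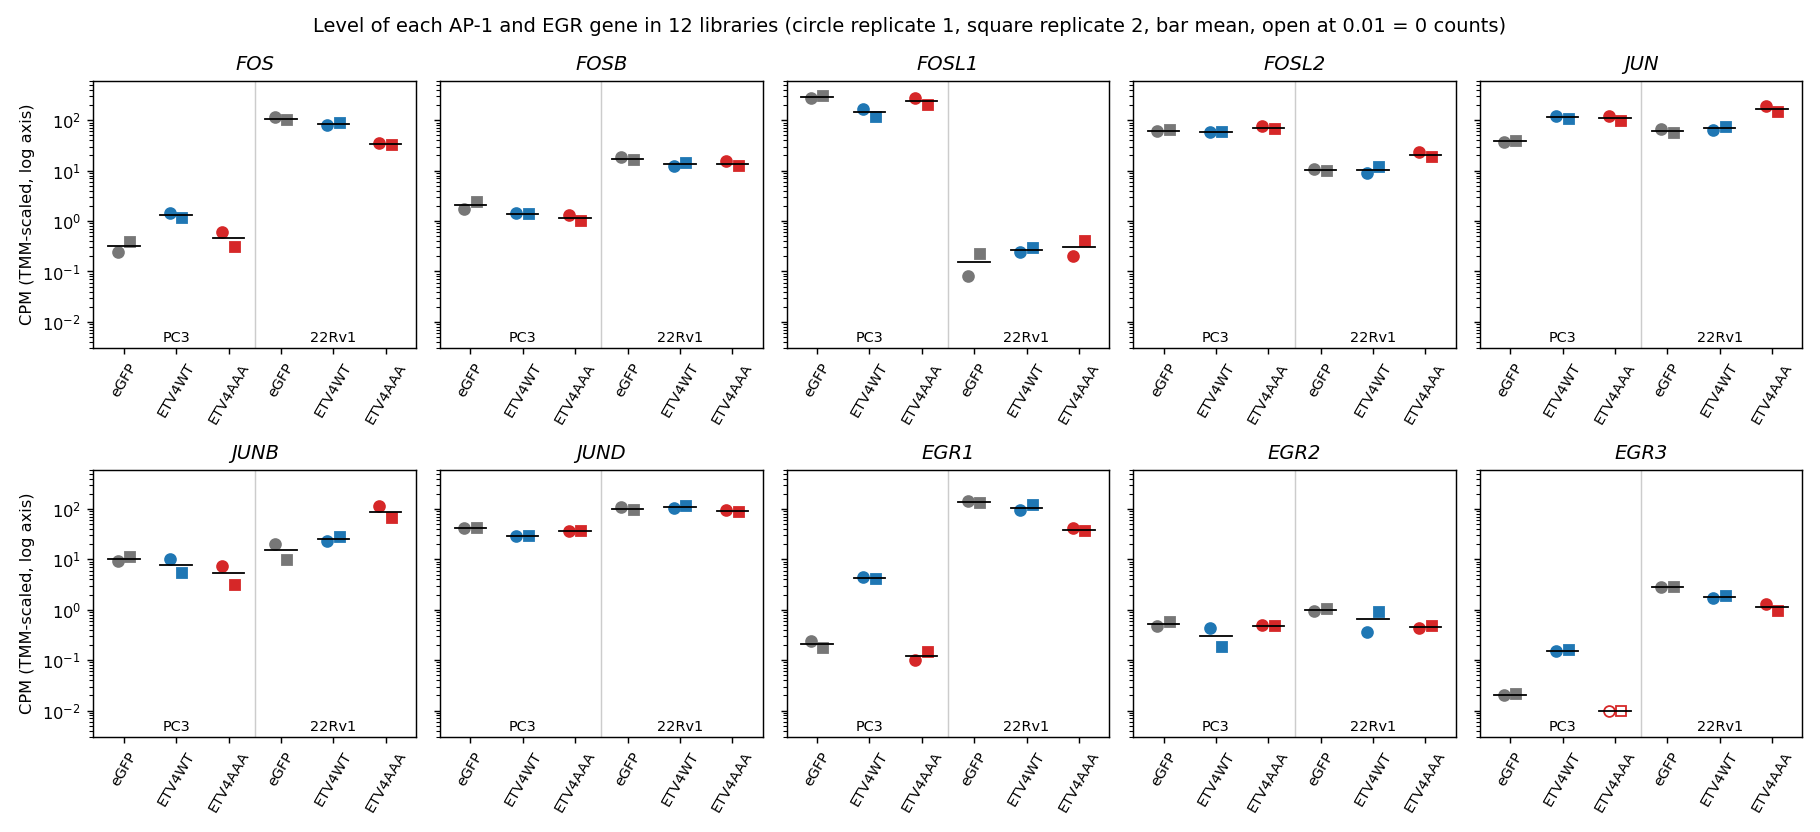
CPM of each member in the 12 libraries on a log axis, by construct within each line (circle replicate 1, square replicate 2, bar group mean, open symbols drawn at 0.01 for 0 counts). FOS, EGR1 and EGR3 sat low in PC3 and high in 22Rv1, and FOSL1 the reverse. EGR1 in PC3 ETV4WT (4.48 and 4.06 CPM) stood above eGFP, while in 22Rv1 ETV4AAA (41.1 and 36.8 CPM) it stood below eGFP.

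In PC3 the libraries labelled ETV4WT held more FOS, JUN, EGR1 and EGR3 RNA than the eGFP libraries and less FOSL1 and JUND, while the immediate early members FOSB, JUNB and EGR2 did not pass the test. Beside 23.4% of all genes, 6 of the 10 members passed the test: FOS, JUN, EGR1 and EGR3 rose (4 members, beside 12.7% of all genes), and FOSL1 and JUND fell (2, beside 10.7%). The median log2 change over the members was -0.25, and 0 over all genes tested. EGR3 in PC3 was tested at all because 22Rv1 holds enough counts. With PC3 fitted on its own EGR3 was filtered out, so its calls in PC3 could not be checked there.

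EGR1 rose furthest, from 0.242 and 0.172 CPM with eGFP to 4.48 and 4.06 CPM, or from 20 to 443 counts over each group. Neither ETV4WT library came near an eGFP library, and the log2 change was 4.34 ± 0.23 (20.3-fold, adjusted p = 7.8e-07). The level reached stayed far under that of 22Rv1 eGFP. EGR3 had 1 and 1 counts with eGFP and 8 and 8 with ETV4WT, a ratio of 7.43 with a counting interval of 1.75 to 66.6. Its call (adjusted p = 0.0109) was lost without eGFP replicate 1 (0.0741) or 2 (0.0713). EGR2, which shares the CArG box of EGR1, did not pass, with 0.427 and 0.181 CPM against 0.483 and 0.559 (log2 -0.75 ± 0.46, adjusted p = 0.261).

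FOS went from 0.242 and 0.387 CPM to 1.47 and 1.13 CPM, with no overlap (2.05 ± 0.30, adjusted p = 0.000481). FOSL1 went from 274 and 297 CPM to 168 and 118 CPM, also with no overlap. Its log2 change was -1 ± 0.22 (adjusted p = 0.00675), and -0.56 (adjusted p = 0.00148) with the GC trend removed. The FOSL1 call was lost without eGFP replicate 2 (-0.94, adjusted p = 0.0615) or ETV4WT replicate 2 (-0.76, adjusted p = 0.0568). FOSB (1.43 and 1.35 CPM, log2 -0.58 ± 0.22, adjusted p = 0.0778) and FOSL2 (59.8 and 57.5 CPM, log2 -0.09 ± 0.16, adjusted p = 0.731) did not pass.

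JUN rose from 37.1 and 39.1 CPM to 124 and 105 CPM, again apart from eGFP (1.58 ± 0.17, adjusted p = 5.65e-05). JUND was 28.7 and 28.6 CPM against 41.4 and 42.4, a fall of narrow spread (-0.55 ± 0.12, adjusted p = 0.00523). With the GC trend removed JUND became 24.2 and 54.6 CPM against 29.4 and 26.0, its direction turned and the call was gone (0.48, adjusted p = 0.287). Its ETV4WT replicates had differed by 0.01 in log2 before the offset, where the 10% of genes richest in GC differed by a median of 0.87. The JUND call was also lost without eGFP replicate 2 (-0.53, adjusted p = 0.0596). JUNB was 10.1 and 5.25 CPM against 9.44 and 11.0, so its replicates spread more than the groups (-0.42 ± 0.44, adjusted p = 0.534). After the offset it was 8.82 and 8.54 CPM against 7.29 and 7.65 (0.22, adjusted p = 0.317).

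The libraries labelled ETV4AAA in PC3 carried the JUN rise without the rise of EGR1. JUN was the 1 member of 10 to pass, beside 3.69% of all genes (2.45% higher and 1.24% lower), at 120 and 98.3 CPM (1.52 ± 0.17, adjusted p = 0.000531). EGR1 was 0.103 and 0.143 CPM, or 11 counts against 20 (-0.76 ± 0.39, adjusted p = 0.445). FOS was 0.616 and 0.311 CPM, which overlapped eGFP (0.59 ± 0.35, adjusted p = 0.417), and the estimate was 0 without ETV4AAA replicate 1. EGR3 had 0 counts in both libraries against 2 with eGFP, too few for a fold. FOSL1 was 273 and 201 CPM (-0.27 ± 0.22, adjusted p = 0.541, and 0.13 with the GC trend removed), and JUNB 7.44 and 3.11 CPM (-0.95 ± 0.45, adjusted p = 0.321). Without ETV4AAA replicate 1, 3 members passed, JUN with JUNB (-1.71) and FOSB (-1.04), both at an adjusted p of 0.0436. The members' median was -0.24, or -0.20 leaving EGR3 out, and that of all genes 0.

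Set against each other, the PC3 constructs differed in FOS, EGR1 and EGR3, 3 of 10 members, beside 11% of all genes. All 3 were lower with ETV4AAA, beside 7.32% of all genes lower and 3.65% higher. EGR1 was -5.10 ± 0.26 in ETV4AAA against ETV4WT (adjusted p = 2.22e-06), and FOS -1.46 ± 0.28 (adjusted p = 0.00573). EGR3 had 0 counts with ETV4AAA and 16 with ETV4WT, a ratio of 0 with a counting interval of 0 to 0.297. With the 0 counts set to the floor of 3 over the group, EGR3 was 4.66-fold lower with ETV4AAA. JUN differed by -0.06 ± 0.17 (adjusted p = 0.891). FOSL1 was 0.73 ± 0.22 higher with ETV4AAA and missed the threshold (adjusted p = 0.055), and it passed in 7 alternatives, among them limma-voom (adjusted p = 0.03) and removal of the GC trend (0.69, adjusted p = 0.000473). With the 4 libraries alone in the fit, FOS no longer passed (-1.49, adjusted p = 0.0766). EGR3 was filtered out of that fit and not tested, so the count was 1. With the GC trend removed it was 5, while calls over all genes went from 2550 to 5504.

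In 22Rv1 wild-type ETV4 raised ETV4 RNA strongly, yet no member passed the test. The count was 0 of 10 by edgeR, DESeq2 and limma-voom, with 2 at an unadjusted p under 0.05 (EGR1 and EGR3), beside 1.5% of all genes (1.06% higher and 0.439% lower). EGR1 was 93.4 and 118 CPM against 146 and 132 with eGFP (-0.40 ± 0.15, adjusted p = 0.243). FOS was 80.9 and 88.9 CPM against 115 and 101 (-0.35 ± 0.19, adjusted p = 0.438), and EGR3 1.68 and 1.88 CPM against 2.77 and 2.86 (-0.66 ± 0.20, adjusted p = 0.161). The ETV4WT libraries lay below both eGFP libraries for these 3 genes. JUN was 64.5 and 74.9 CPM, overlapping the eGFP values (0.18 ± 0.17, adjusted p = 0.667), and JUNB 22.8 and 27.6 CPM, above them (0.74 ± 0.43, adjusted p = 0.467). With the GC trend removed 3 members passed, EGR1 (-0.42, adjusted p = 0.0166), FOSB (-0.42, adjusted p = 0.0428) and JUNB (0.60, adjusted p = 0.0209). Calls over all genes rose as well, from 348 to 1894. The members' median was -0.16 and that of all genes 0.01.

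ETV4AAA in 22Rv1 moved 6 of 10 members, beside 31.8% of all genes: FOS, EGR1 and EGR3 fell (3, beside 14.4% of all genes), and JUN, JUNB and FOSL2 rose (3, beside 17.4%). The members' median was -0.24 and that of all genes 0. EGR1 was 41.1 and 36.8 CPM against 146 and 132 with eGFP, a 3.57-fold drop (-1.84 ± 0.15, adjusted p = 2.41e-06). FOS was 34.6 and 32.9 CPM against 115 and 101 (-1.68 ± 0.20, adjusted p = 4.37e-05), and EGR3 1.31 and 0.949 CPM (-1.31 ± 0.21, adjusted p = 0.000679). For all 3 the ETV4AAA libraries were the lowest of the 6 in this line. EGR2, at 0.444 and 0.475 CPM against 0.964 and 1.03, lay just outside the threshold (-1.11 ± 0.40, adjusted p = 0.0545) and inside it in 6 alternatives, for example -1.18 (adjusted p = 0.035) with upper-quartile scaling. FOSB passed too with the GC trend removed (-0.35, adjusted p = 0.0301).

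JUNB had the largest rise of a member in this comparison, to 112 and 65.7 CPM from 20.2 and 9.9 CPM (2.56 ± 0.45, 5.92-fold, adjusted p = 0.00094). The lowest ETV4AAA library was above the highest of the other 4 libraries of the line. Replicate 1 exceeded replicate 2 in both groups, and with the GC trend removed the levels were 99.6 and 75.9 CPM against 17.7 and 12.9 CPM. Part of the JUNB exon sequence, 259 bases, overlaps HOOK2 on the other strand, with the same limit as for EGR3. JUN rose to 191 and 143 CPM from 66.8 and 55.9 (1.45 ± 0.17, adjusted p = 5.03e-05), and FOSL2 to 23.1 and 18.6 CPM from 10.8 and 9.7 (1.02 ± 0.16, adjusted p = 0.000482). Both were apart from eGFP and from ETV4WT. FOSB, at 15.3 and 12.4 CPM (-0.31 ± 0.19, adjusted p = 0.233), and JUND, at 95.8 and 85.4 CPM (-0.17 ± 0.12, adjusted p = 0.3), did not pass, nor did FOSL1, with 26 counts against 15 (0.94 ± 0.55, adjusted p = 0.224).

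Directly between the 22Rv1 constructs, 5 of 10 members passed, beside 23.5% of all genes, 3 of them higher with ETV4AAA (13.9% of all genes) and 2 lower (9.62%). ETV4AAA was lower than ETV4WT in EGR1 (-1.44 ± 0.15, adjusted p = 2.34e-05) and FOS (-1.33 ± 0.19, adjusted p = 0.000343). It was higher in JUN (1.26 ± 0.17, adjusted p = 0.000194), FOSL2 (0.99 ± 0.16, adjusted p = 0.000794) and JUNB (1.82 ± 0.43, adjusted p = 0.00937). The JUNB call was lost without ETV4WT replicate 1 (1.68, adjusted p = 0.112) or 2 (1.95, adjusted p = 0.0679) or ETV4AAA replicate 1 (1.37, adjusted p = 0.118). EGR3 was close to the threshold (-0.65 ± 0.22, adjusted p = 0.0516). The comparisons with eGFP in a line share the eGFP libraries, so their errors are not independent.

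**Figure D3:**
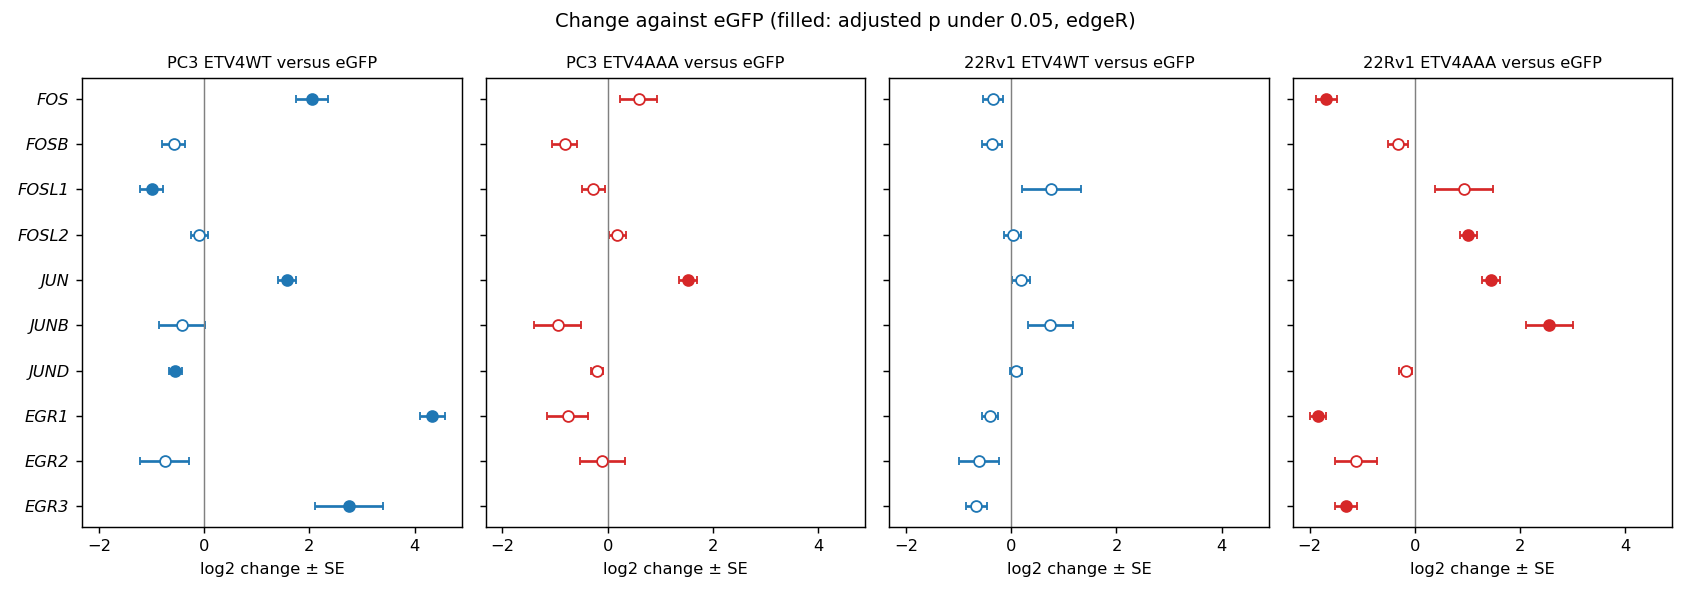
Log2 change of each member against eGFP with its SE, in 4 panels by line and construct (filled points have an adjusted p under 0.05). EGR3 in PC3 ETV4AAA, with 0 counts, is not drawn. EGR1 and FOS lie to the right in PC3 ETV4WT and to the left in 22Rv1 ETV4AAA, and JUN is a filled point in every panel but 22Rv1 ETV4WT, where it was 0.18 ± 0.17.

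Whether a construct acted differently in the 2 lines was tested by the difference of the log2 changes, 22Rv1 minus PC3. For ETV4WT 5 of 10 members differed, beside 12.5% of all genes, 1 with a higher change in 22Rv1 (4.92% of all genes) and 4 with a lower (7.57%). EGR1 differed by -4.74 ± 0.28 (adjusted p = 4.53e-06), FOS by -2.40 ± 0.36 (adjusted p = 0.00108) and JUN by -1.40 ± 0.24 (adjusted p = 0.00273). EGR3 and JUND (0.64, adjusted p = 0.0248) completed the count. The JUND difference turned to -0.72 (adjusted p = 0.285) with the GC trend removed, and it was lost with upper-quartile scaling (0.46, adjusted p = 0.11), with no low-count filter (0.53, adjusted p = 0.155) and on leaving out each of 6 of the 8 libraries in turn. For ETV4AAA 3 of 10 differed, beside 16.2% of all genes, 2 higher (9.48% of all genes) and 1 lower (6.73%): FOS by -2.27 ± 0.40 (adjusted p = 0.00212), JUNB by 3.51 ± 0.63 (adjusted p = 0.0023) and FOSL2 by 0.85 ± 0.23 (adjusted p = 0.0234). The JUN rise with ETV4AAA, 1.52 in PC3 and 1.45 in 22Rv1, differed by -0.07 ± 0.24 (adjusted p = 0.911), which does not show that the lines respond alike. EGR1 with ETV4AAA differed by -1.08 ± 0.45 (adjusted p = 0.194), from low counts in PC3. Between the constructs, 6 of 10 differed, beside 21% of all genes, 5 higher (13% of all genes) and 1 lower (7.94%), EGR1 (3.66 ± 0.32) and JUN (1.33 ± 0.24) among them.

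Levels of different genes can be compared per kilobase of exon. On that scale FOSL1 made up 94.2% ± 0.0707 (SD, n = 2) of the summed FOS family in PC3 eGFP, 89.3% ± 1.98 with ETV4WT and 92.4% ± 0.849 with ETV4AAA. FOS remained at or under 0.476% of the family in these 3 groups, so its rise in PC3 did not change which gene led. In 22Rv1 FOS made up 87.8% ± 0.0707 with eGFP, 86.8% ± 0.636 with ETV4WT and 65.2% ± 2.19 with ETV4AAA. In that last group FOSL2 reached 18.2% ± 1.48 and FOSB 15.6% ± 1.20, and the family sum was 16 ± 1.13 CPM per kb against 38 ± 3.46 with eGFP.

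Within the JUN family the leading gene changed with the constructs, on levels without the GC offset. JUND led in PC3 eGFP with 57.9% ± 1.13 and JUN led with ETV4WT (62.2% ± 0.495) and ETV4AAA (57.8% ± 1.27). This depends on the offset. With it JUND was 29 and 66.9 CPM in PC3 ETV4AAA and JUN 112 and 116. JUND has 1863 exon bases and JUN 3540, so per kilobase JUND led in replicate 2 of that group. In ETV4WT JUND was 24.2 and 54.6 CPM with the offset and JUN 117 and 127. In 22Rv1 JUND led with 68.4% ± 3.46 in eGFP and 63.6% ± 1.70 in ETV4WT. With ETV4AAA JUN (32.6% ± 0.495), JUNB (33.2% ± 5.23) and JUND (34.1% ± 4.81) did not differ beyond their spread, and the family sum was 144 ± 31.8 CPM per kb against 80.3 ± 10.7. In the EGR family EGR1 was at or above 97.2% in the 3 groups of 22Rv1. In PC3 EGR2 led with 66.8% ± 7.21 in eGFP and 77.1% ± 4.53 in ETV4AAA, and EGR1 led in ETV4WT with 92.4% ± 2.33. The family was near the floor in PC3, with sums of 0.212 (eGFP), 0.17 (ETV4AAA) and 1.48 CPM per kb (ETV4WT). In 22Rv1 eGFP the sum was 45.2. These shares were not tested.

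**Figure D4:**
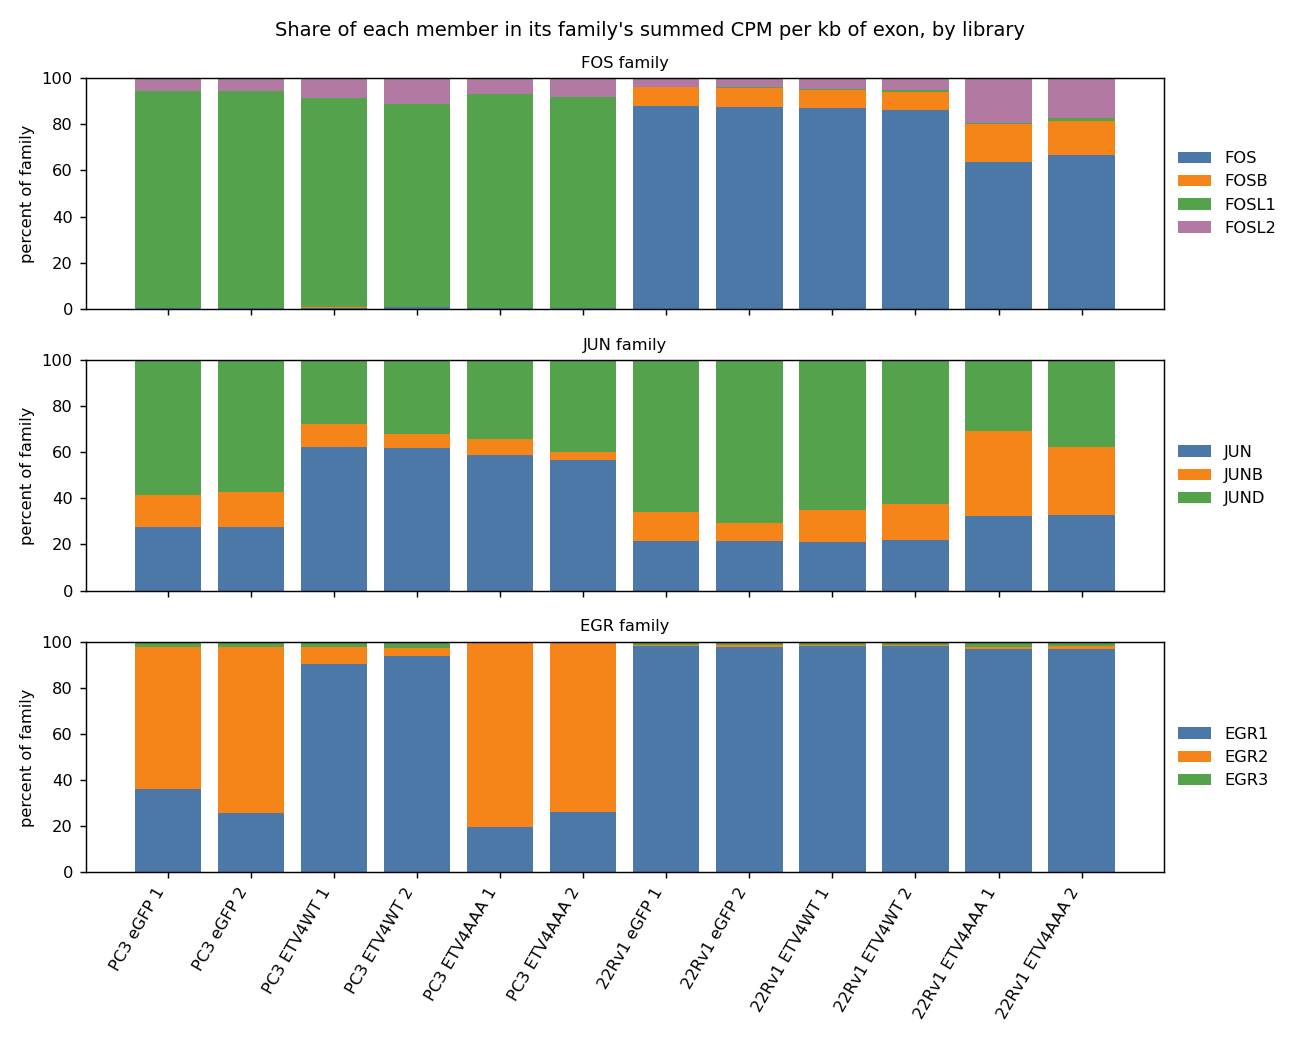
Share of each member in the summed CPM per kb of its family, one stacked bar from 0 to 100% per library. FOSL1 fills most of the FOS family in the 6 PC3 libraries and FOS in the 6 22Rv1 libraries, and the JUNB share is visibly larger in both 22Rv1 ETV4AAA libraries.

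Genes of proteins that dimerise with FOS and JUN or are related to them were counted next. In PC3 ETV4WT, of 19 AP-1 dimer partners tested 9 rose and 1 fell (beside 12.7% and 10.7% of all genes), with a list median of 0.78 (0.61 with low-count genes at their bound) against 0 for all genes. ATF3, a stress-induced repressor and JUN partner, went from 3.54 and 2.88 to 34.9 and 38.9 CPM (3.52 ± 0.15, adjusted p = 2.39e-07), and MAF from 1.05 and 1.01 to 4.39 and 5.95 CPM (2.32 ± 0.26, adjusted p = 7.25e-05). In PC3 ETV4AAA 3 rose and 0 fell (beside 2.45% and 1.24%), ATF3 again (1.34 ± 0.15, adjusted p = 0.000455) with CREM and ATF4, and without either eGFP library or without ETV4AAA replicate 2 the count was 1, with CREM (0.68 to 0.82) and ATF4 (0.50 to 0.61) lost. ATF4 (0.39) was also lost without ETV4AAA replicate 1. In 22Rv1 ETV4WT, beside 1.06% of all genes higher and 0.439% lower, the 1 partner to pass was JDP2, an AP-1 repressor, which fell (-1.97 ± 0.27, adjusted p = 0.00257). It did not pass without ETV4WT replicate 1 (-2.03, adjusted p = 0.0634). In 22Rv1 ETV4AAA 7 rose and 6 fell, beside 17.4% and 14.4% of all genes: CREB5 (1.58 ± 0.21) and BATF3 (1.65 ± 0.22) were among the rises, ATF5 (-1.30 ± 0.14) and JDP2 (-1.90 ± 0.27) among the falls.

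Other immediate early genes, induced by the same kinds of signal, also passed the test. In PC3 ETV4WT 10 of 28 rose and 0 fell (median 0.31, beside 12.7% and 10.7% of all genes), led by BTG2, an antiproliferative gene (2.59 ± 0.20, adjusted p = 5.99e-06), TRIB1 (1.33 ± 0.12, adjusted p = 1.04e-05) and RHOB (1.66 ± 0.18, adjusted p = 5.65e-05). In PC3 ETV4AAA 2 rose, TRIB1 and IER5, and 0 fell, beside 2.45% and 1.24% of all genes. IER5 (0.68) was lost without any 1 of the 4 libraries compared (0.58 to 0.75). In 22Rv1 ETV4AAA, where FOS and EGR1 fell, 12 of 28 rose and 5 fell (median 0.21, beside 17.4% and 14.4% of all genes), so the falls were near the share of all genes. SGK1, a serum-induced kinase, went from 2.01 and 2.66 to 28.5 and 31.3 CPM (3.68 ± 0.18, adjusted p = 2.3e-08), and ARC from 0.964 and 0.659 to 25.6 and 18.2 CPM (4.75 ± 0.26, adjusted p = 6.23e-08). IER5 (2.75 ± 0.17) and the nuclear receptor NR4A3 (4.47 ± 0.33) also rose. In 22Rv1 ETV4WT, beside 1.06% of all genes higher and 0.439% lower, the 1 call was BTG2 (1.07 ± 0.16, adjusted p = 0.00512). It was lost without eGFP replicate 1 (1.06) or 2 (1.07) or ETV4WT replicate 1 (1.02).

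Genes that sit upstream of the members were counted too. Of 24 kinases of the ERK, JNK and p38 branches 3 rose and 3 fell in PC3 ETV4WT, beside 12.7% and 10.7% of all genes, so the counts say little of the kinases. In 22Rv1 ETV4AAA 6 rose and 0 fell, beside 17.4% and 14.4%, and 3 passed without ETV4AAA replicate 2. Removal of the GC trend gave 3 rises and 8 falls in PC3 ETV4WT and 10 rises and 1 fall in 22Rv1 ETV4AAA. Over all genes it took the calls from 5434 to 8503 in the first and from 7395 to 10336 in the second. MAP3K1, which feeds the JNK branch, rose in both lines (1.79 ± 0.20, adjusted p = 7.86e-05, and 1.55 ± 0.19, adjusted p = 5.75e-05), and MAP2K6, a p38 kinase kinase, fell in the first (-0.86 ± 0.15) and rose in the second (2.15 ± 0.15). Of 8 genes of SRF and its partners 0 rose and 2 fell in PC3 ETV4WT, SRF (-0.61 ± 0.18, adjusted p = 0.0304) and ELK1 (-0.42 ± 0.13, adjusted p = 0.0333), beside 10.7% of all genes lower. Neither passed without eGFP replicate 1 or 2 or without ETV4WT replicate 2, and neither with upper-quartile scaling. In 22Rv1 ETV4AAA 1 rose and 2 fell (beside 17.4% and 14.4%), and the 2 falls were lost without eGFP replicate 2 or ETV4AAA replicate 2. ELK3, a ternary complex partner of SRF, rose there (1.74 ± 0.17, adjusted p = 8.4e-06). NAB2, a corepressor that EGR1 is known to induce, went from 19.8 and 22.7 to 6.5 and 4.4 CPM in PC3 ETV4WT (-1.96 ± 0.23, adjusted p = 8.32e-05), opposite in sign to EGR1.

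Genes reported in general as AP-1 targets were counted as a list chosen from general knowledge. In PC3 ETV4WT 13 of 31 rose and 2 fell, beside 12.7% and 10.7% of all genes (median 0.47, and 0.52 with low-count genes at their bound). HBEGF, an EGF receptor ligand, was 80.3 and 86.7 CPM against 14.8 and 14 (2.53 ± 0.16, adjusted p = 1.85e-06), and CXCL8, a neutrophil chemokine, 46.9 and 59.3 against 4.47 and 4.08 (3.63 ± 0.22, adjusted p = 2.24e-06). With the GC trend removed 17 rose and 6 fell, while calls over all genes went from 5434 to 8503. In PC3 ETV4AAA 5 rose and 0 fell, beside 2.45% and 1.24% of all genes, CXCL8 (2.77 ± 0.21) and HBEGF (1.61 ± 0.15) among them. Fewer passed without eGFP replicate 1 or 2. In 22Rv1 ETV4AAA 18 rose and 2 fell, beside 17.4% and 14.4% (median 1.25, and 1.15 at the bound), with AREG, another EGF receptor ligand, from 0.615 and 1.21 to 20.1 and 23.4 CPM (4.57 ± 0.30, adjusted p = 2.74e-07) and CD44, an adhesion receptor, from 120 and 129 to 430 and 427 CPM (1.79 ± 0.12, adjusted p = 2.64e-07). CD44 (1.02 ± 0.11) and LIF (2.06 ± 0.27) were the 2 that passed in 22Rv1 ETV4WT, both higher, beside 1.06% of all genes higher and 0.439% lower. LIF was lost without eGFP replicate 2 (1.92).

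Genes reported as EGR1 targets were counted in the same way. In 22Rv1 ETV4AAA, where EGR1 fell, 9 of 18 rose and 2 fell, beside 17.4% and 14.4% of all genes (median 1.1, and 1.25 at the bound). The falls were thus near the share of all genes. In 22Rv1 ETV4WT, where EGR1 did not pass, 3 rose and 0 fell, beside 1.06% and 0.439% (median 0.01). FN1 (1.94 ± 0.13) and CDKN1A (1.92 ± 0.16) were among these rises. With ETV4AAA FN1, fibronectin, went from 26.5 and 25.3 to 329 and 287 CPM (3.57 ± 0.14, adjusted p = 6.29e-09). ICAM1 went from 1.52 and 1.19 to 32.8 and 25.6 CPM (4.43 ± 0.27, adjusted p = 1.78e-07). In PC3 ETV4WT 7 rose and 3 fell, beside 12.7% and 10.7% (median 0.25), with CCND2 (3.16 ± 0.25) and FLT1 (3.72 ± 0.30) up. The lists hold genes with many regulators. Some genes are in both target lists, and NAB2 is both an EGR co-regulator and a listed EGR1 target.

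Heat shock genes, which respond to protein-damaging stress and cell handling, were counted beside the members. In PC3 ETV4WT 0 of 12 rose and 7 fell, beside 12.7% and 10.7% of all genes (median -0.69), HSPA1A from 35.5 and 45.4 to 7.4 and 6.17 CPM (-2.58 ± 0.26, adjusted p = 3.28e-05). With the GC trend removed 1 rose and 10 fell, while calls over all genes went from 5434 to 8503. In 22Rv1 ETV4AAA 7 rose and 1 fell, beside 17.4% and 14.4% (median 0.44), HSPA1A from 8.14 and 5.02 to 22.1 and 15.9 CPM (1.53 ± 0.26, adjusted p = 0.000694), while FOS and EGR1 fell and JUN and JUNB rose. The count of 8 called was 4 without eGFP replicate 1 and 5 without ETV4AAA replicate 1 or 2. HSPA1A and HSPA1B are near-identical, so reads may be split between them. The part of heat shock in the members' changes was not tested. In bulk RNA, fewer cells with a transcript and less of it per cell cannot be told apart.

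**Figure D5:**
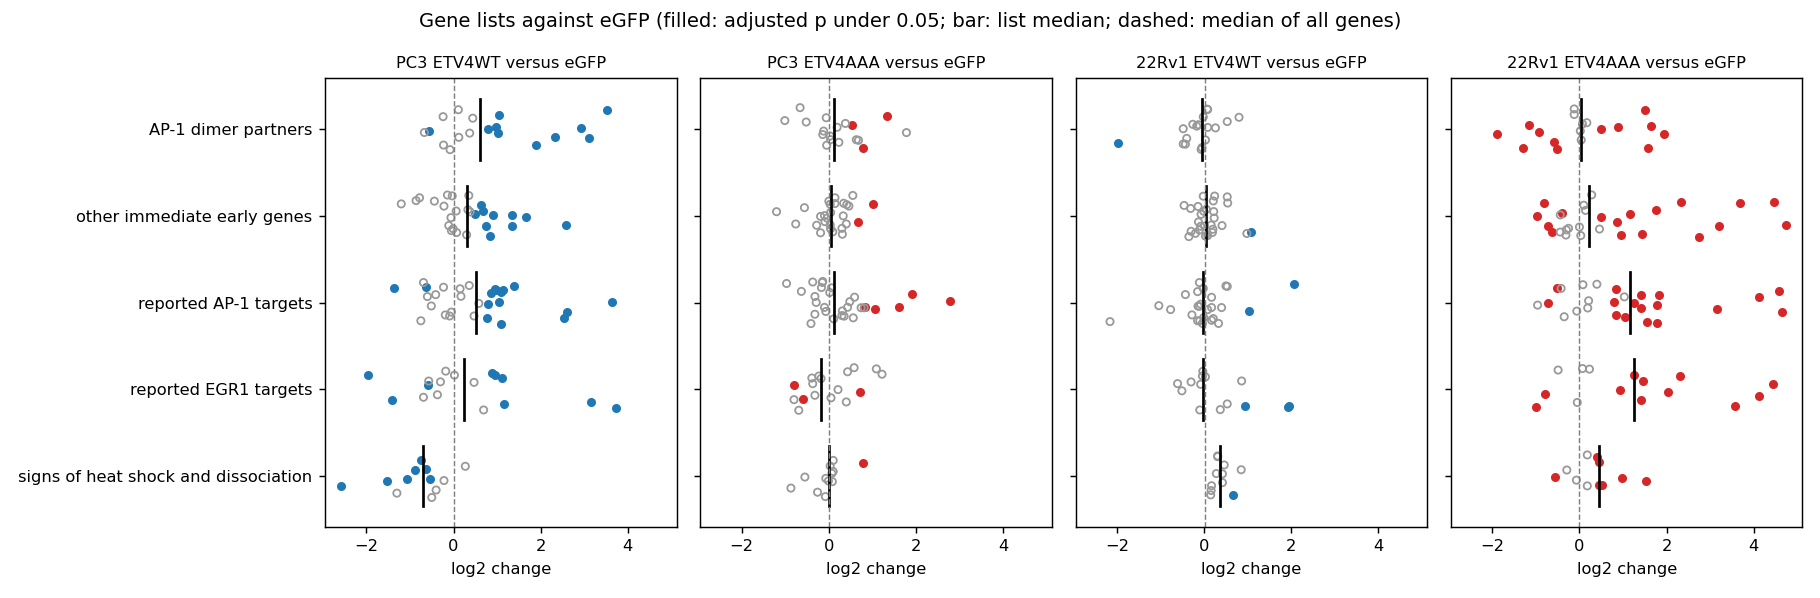
Log2 changes against eGFP of the genes in 5 lists, in 4 panels by line and construct (filled: adjusted p under 0.05, black bar: list median at the bound, dashed line: median of all genes). Genes with 3 counts or fewer in a compared group are not drawn. The AP-1 target bar lies at 0.52 in PC3 ETV4WT and 1.15 in 22Rv1 ETV4AAA, and the heat shock bar at -0.69 and 0.44.

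Genes with the most similar pattern were sought among 11912 candidates by Pearson r of log2 CPM over the 12 libraries, after each line's mean was subtracted. These correlations are descriptions, since all points share 2 libraries per group and the GC trend above. The nearest genes were RIBC2 (r = 0.992) and JAM3 (0.979) for EGR1, RIBC2 (0.980) and ARPIN (0.979) for EGR3, and EFHD1 (0.959) and C9orf64 (0.956) for FOS. JUN was nearest to NOG (0.978) and LPIN2 (0.974), JUNB to HPS1 (0.991) and FKBP10 (0.990), and FOSL2 to ITPKB (0.982) and ARFGEF3 (0.980). FOSL1 had the weakest neighbours, VSTM5 (0.885) and CSTF1 (0.851), and JUND lay nearest to AP4B1 (0.970) and KLHL21 (0.965).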

How the data were processed

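The 12 libraries of polyadenylated RNA form 6 groups of 2, taken from the labels' construct, cell line and replicate. The values, as deposited by the authors, are unnormalised read counts by Ensembl ID. The submitters' processing notes name FastQC 0.11.9, STAR 2.5.3a and the build GRCh38. How reads were counted, with or without strand and on which annotation, is not stated in any source used here. Symbols, positions and exon lengths came from GENCODE 29 (99.55% of 58302 IDs matched), promoter sequences from RefSeq (GRCh38.p14).

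Genes were filtered with filterByExpr, which kept 23238, scaled by TMM and fitted in 1 edgeR 4.0.16 quasi-likelihood model of 6 group means (R 4.3.3, 6 residual degrees of freedom). Benjamini-Hochberg adjustment ran over all genes, threshold 0.05, in 10 contrasts, and was checked on simulated data. SE is the log2 change divided by the square root of F. Counting intervals are 95%, exact, and cover counting error only. The floor for 0 counts was 3 per group. The members, the gene lists and the rule for named genes (members, ETV4, from each list up to 4 called and 1 uncalled gene per comparison, and the 2 nearest genes by correlation) were chosen with earlier results of these data known, and the lists come from general knowledge. Of list genes meeting the rule a selection is named. Alternatives were other scalings, filters, tests (DESeq2 1.42.0, limma-voom 3.58.1), fits on fewer libraries, a replicate block and each library left out. Removal of the GC trend and leaving out replicate 2 of both PC3 constructs were added after seeing the data. Some list genes that met the rule are not reported here.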

Additional observations from a re-analysis of the deposited data

Results flagged for a closer look

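The changes of 7 members against eGFP, or between constructs, differed between the lines by an interaction contrast (edgeR's quasi-likelihood test, adjusted over all genes, values as 22Rv1 minus PC3 on the log2 scale). Of all genes 12.5% differed for ETV4WT, 16.2% for ETV4AAA and 21% between the constructs. The share of all genes called in any of these contrasts was not computed, so the 7 has no matching share. For ETV4WT the members were EGR1 (-4.74), EGR3 (-3.41, adjusted p = 0.0074, from 2 counts in PC3 eGFP), FOS (-2.40), JUN (-1.40) and JUND (0.64, adjusted p = 0.0248). For ETV4AAA they were JUNB (3.51), FOS (-2.27) and FOSL2 (0.85). For ETV4AAA against ETV4WT they were EGR1 (3.66), JUNB (2.36, adjusted p = 0.0179), JUN (1.33), FOSL2 (0.72, adjusted p = 0.0397), JUND (-0.61, adjusted p = 0.0202) and EGR3 (5.25, adjusted p = 0.00698), the last a fitted value that depends on the prior count because PC3 ETV4AAA held 0 counts.

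The smaller differences did not pass under every setting. FOSL2 for ETV4AAA did not pass without PC3 eGFP replicate 1 (0.89) or 2 (0.81), PC3 ETV4AAA replicate 2 (0.76), 22Rv1 eGFP replicate 2 (0.77) or 22Rv1 ETV4AAA replicate 1 (0.69), with adjusted p from 0.0689 to 0.106. FOSL2 between the constructs did not pass without either PC3 ETV4WT replicate (0.70 and 0.76), PC3 ETV4AAA replicate 2 (0.65), 22Rv1 ETV4WT replicate 1 (0.58) or 22Rv1 ETV4AAA replicate 1 (0.59). JUNB between the constructs did not pass without PC3 ETV4WT replicate 1 (1.81), 22Rv1 ETV4WT replicate 1 (2.26) or 2 (2.54) or 22Rv1 ETV4AAA replicate 1 (1.96). JUND for ETV4WT did not pass without either PC3 eGFP replicate (0.66 and 0.63), PC3 ETV4WT replicate 2 (0.64), 22Rv1 eGFP replicate 2 (0.54) or either 22Rv1 ETV4WT replicate (0.67 and 0.58), nor without replicate 2 of both PC3 constructs (0.53), with upper-quartile scaling (0.46), with no low-count filter (0.53) or with the GC trend removed (-0.72, adjusted p = 0.285). JUND between the constructs did not pass without PC3 ETV4AAA replicate 1 (-0.59), 22Rv1 ETV4WT replicate 2 (-0.54) or 22Rv1 ETV4AAA replicate 2 (-0.50), nor without replicate 2 of both PC3 constructs (-0.49), with upper-quartile scaling (-0.53, adjusted p = 0.0525), with no low-count filter (-0.50) or with the GC trend removed (-0.31, adjusted p = 0.671). FOSL2 passed with the GC trend removed for ETV4AAA (0.79, adjusted p = 0.00143) and between the constructs (0.76, adjusted p = 0.00144), and so did JUNB between the constructs (2.53, adjusted p = 1.75e-07).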

How the results depend on the processing

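Counts of members called moved by more than 1.5 times in 4 comparisons. In PC3 ETV4WT against eGFP, 3 to 6 passed with each library left out in turn, the 3 without eGFP replicate 2. In PC3 ETV4AAA against eGFP, 3 passed with no low-count filter, and 1 to 3 with a library left out. Between the PC3 constructs 5 passed with no filter, 5 with the GC trend removed and 1 with the 4 libraries alone, where EGR3 was not tested. In 22Rv1 ETV4WT, 1 passed with no filter and 3 with the GC trend removed. Over all genes, removal of the GC trend raised the calls from 2550 to 5504 between the PC3 constructs. It raised them from 348 to 1894 in 22Rv1 ETV4WT. In the other comparisons, over all settings, 8 to 10 passed between the eGFP groups, 6 to 8 in 22Rv1 ETV4AAA, 4 to 6 between the 22Rv1 constructs, 4 to 6 for the ETV4WT difference between lines, 2 to 3 for the ETV4AAA difference and 4 to 6 for the difference between constructs. Upper-quartile scaling moved the median of all genes by 0.116 (PC3 ETV4WT), 0.322 (the eGFP groups) and -0.156 (the ETV4WT difference between lines). The share of all called genes that were higher in PC3 ETV4WT was 54.4% with TMM, 69.2% with upper-quartile scaling and 39.2% with the GC trend removed.

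The signs below changed, and the cause was not tested. With the GC trend removed JUND turned to 0.48 (PC3 ETV4WT), 0.77 (PC3 ETV4AAA), -0.23 (22Rv1 ETV4WT), -0.72 (ETV4WT difference between lines) and -1.03 (ETV4AAA difference), FOSB to -0.17 (ETV4WT difference), FOSL1 to 0.13 (PC3 ETV4AAA), JUNB to 0.22 and FOSL2 to 0.01 (PC3 ETV4WT). In PC3 ETV4WT FOSL2 was 0.06 (upper quartile), 0.01 (no filter) and 0.02 (floor of 1 CPM), and without replicate 2 of both PC3 constructs FOSL2 was 0.03 and JUNB 0.07. For the ETV4WT difference these 2 libraries' absence gave -0.01 (FOSL2) and -0.44 (EGR2), and upper-quartile scaling gave -0.07 and -0.05. FOSL2 in 22Rv1 ETV4WT was -0.01 (upper quartile). The ETV4AAA difference of JUND was -0.03 (DESeq2 size factors), -0.07 (upper quartile) and -0.02 (DESeq2). With single libraries left out, the sign changed within these ranges: FOS 0 to 0.96 and EGR2 -0.19 to 0.01 (PC3 ETV4AAA), JUN -0.21 to 0.07 and JUNB -1.30 to 0.02 (between PC3 constructs), FOSB -0.12 to 0.18, FOSL1 -0.41 to 0.60 and EGR2 -1.01 to 0.29 (between 22Rv1 constructs), FOSL2 -0.17 to 0.20 (22Rv1 ETV4WT), JUNB -0.06 to 0.97 (eGFP groups), FOSB -0.01 to 0.42, FOSL2 -0.10 to 0.27 and EGR2 -0.69 to 0.90 (ETV4WT difference), JUN -0.29 to 0.13 and JUND -0.05 to 0.13 (ETV4AAA difference), and FOS -0.23 to 0.73 (difference between constructs).

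Replicate numbers are shared by the groups, and same-numbered libraries deviated with a correlation that ranged from -0.149 to 0.494 over pairs of groups. It was 0.212 to 0.494 among PC3 ETV4WT, PC3 ETV4AAA, 22Rv1 eGFP and 22Rv1 ETV4AAA, the 4 groups whose replicates differ the same way along GC content and at most 0.03 in the pairs that include PC3 eGFP or 22Rv1 ETV4WT. No label says what a number marks, so the numbers were not taken to pair the libraries. With a replicate block EGR2 between the eGFP groups was lost (0.93, adjusted p = 0.0502), and EGR2 in 22Rv1 ETV4AAA (-1.12, adjusted p = 0.0489) and FOSL1 between the PC3 constructs (0.73, adjusted p = 0.0149) were gained. Where an arm was left with 1 library, that library was assumed to vary like the others. Depth limits EGR3 in PC3, which had 2 counts with eGFP, 16 with ETV4WT and 0 with ETV4AAA.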
